A study of Mus musculus with 4 samples.

Results

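The acid lipase genes described here are 7 members of a cluster on mouse chromosome 19: Lipn, Lipk, Lipm, Lipf, Lipa, Lipo3 and Lipo4. They were found by gene name among the 34787 genes and named transcripts on the array, and each is read by 1 probe that is spotted once. The probe labelled Lipo1 in the scanner files carries the accession of the gene now called Lipo3 and was taken as Lipo3. The cluster was singled out because Lipn was among the most increased genes after nerve injury, so the SNL and sham values of the members are given as a description and not as a test. The data come from the lumbar spinal cord of 4 male ICR mice, an outbred strain, aged 8 weeks. In 2 mice the L5 spinal nerve had been tightly tied (spinal nerve ligation, SNL), and in 2 sham mice the nerve had been exposed only. Tissue was taken 10 days after surgery, and each mouse gave 1 array. The labels name the L4 to L5 segments in the protocol and L5 cord in the source field, and no transgene or drug was used in either group.

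Acid lipases are globular hydrolases that split fatty acids from glycerol or cholesterol esters and, unlike most lipases, work at low pH. Lipa encodes the lysosomal acid lipase, which frees cholesterol and fatty acids from lipoproteins taken up by the cell, in macrophages above all. Lipf encodes gastric lipase, a secreted digestive enzyme of the stomach. LIPK, LIPM and LIPN of human epidermis are expressed late in keratinocyte differentiation, and loss of LIPN in humans causes a late-onset ichthyosis, a scaling disorder of the skin. The Lipo genes are relatives in the same cluster of the mouse.

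The probe sequences are shown because every value below rests on 1 oligonucleotide per gene. The first 30 bases of each probe of 60 bases are given in the order of the probes along chromosome 19, as 5′ to 3′ sequence from the scanner files, with no capitals because no part is singled out.
Lipo4: gaggtgggtgcatatgtatgcgatattaac
Lipo3: gtgtgaacacatacacatgtgataagttcc
Lipf: gatggcagaagactaacagaattatctaca
Lipk: tcttttatgtgaggaagagaactgaatgtt
Lipn: atcaatttttcagtcaaactttgcttccag
Lipm: cttgccatcacattgccataaagacaagac
Lipa: ctgttgtttgctagcaaaaataagtctgcc
No full probe shared a run of 12 or more bases with the probe of another member. The longest run that the Lipn probe shared with a probe of any other gene on the array was 14 bases, as for Lipk, and the range over the 7 members was 12 to 15. G and C made up 45% of the bases of the Lipn and Lipo4 probes, 43.3% in Lipa, 41.7% in Lipm, 40% in Lipf, 36.7% in Lipk and 35% in Lipo3. Probes were compared on the same strand only, and whether they meet other transcripts, such as those of further Lipo genes, was not analysed here.

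On the mouse build mm9, the probe of Lipk lies on the plus strand at chr19:34121597-34121656 and that of Lipn on the same strand at chr19:34159349-34159408, with 37.8 kb between their starts. The Lipm probe follows 37 kb further on at chr19:34196336-34196395, and the Lipf probe precedes Lipk by 70.4 kb at chr19:34051173-34051232. Lipo4, at chr19:33577683-33577742, and Lipo3, at chr19:33629863-33629922, lie on the minus strand at one end. Lipa, at chr19:34567717-34567776 and also on the minus strand, lies 408 kb beyond Lipn. The place of these probes within exons was not analysed here.

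Levels are given as the processed signal, a linear spot intensity in arbitrary units, and as log2 of that signal minus the 75th percentile of its own array, so a level of 0 is the brightness of that percentile. Probes differ in how well they bind, so the levels of a gene are compared between mice for 1 probe. Summed levels of marker lists are also compared between mice only, and the brightest probes weigh most in them. The feature extraction software marks a spot as well above background or not, and this mark is reported for every member. The share of spots so marked was 74.9% and 78.1% in SNL mice, against 82.1% and 81.9% in sham mice, no spot was saturated, and all 4 arrays shared 1 slide and 1 scan. Markers of cord neurons and glia were bright in all 4 mice, with 14 of 14 measured. Some libraries stood apart in markers of other tissues. Over 8 Schwann cell markers the summed level, in multiples of the 75th percentile, was 13.2 and 8.09 in SNL mice, against 10.2 in sham replicate 1 and 1.41 in sham replicate 2. Over 6 skeletal muscle markers it was 25.4 in SNL replicate 1 and 1.81 in SNL replicate 2, against 2.42 and 3.2 in sham mice.

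Lipn and its neighbour Lipk were well above background in both SNL mice and in neither sham mouse. Lipo4, Lipo3 and Lipa were measured in all 4 mice, and their fitted differences between the groups were 1.35-fold (Lipo3) or less. Lipf was near the detection limit, and Lipm was not well above background in any mouse. A total of 41 genes or named transcripts, or 0.141% of those tested, had the detection pattern of Lipn and Lipk. The opposite pattern, detected in both sham mice and in neither SNL mouse, was held by 871 of the 29114 tested, Lipf among them. Fewer spots were well above background in SNL mice (74.9% and 78.1%) than in sham mice (82.1% and 81.9%). Nothing about injury is therefore read from these counts. The dimmest detected probe lay at levels of -6.89 and -7.01 on the SNL arrays and of -7.86 and -8.01 on the sham arrays.

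Lipn had processed signals of 1601 and 1419 in SNL mice, against 40.6 and 43.5 in sham mice. The raw spot brightness before any correction was 1592 and 1558 in SNL mice, against 108.7 and 115.8 in sham mice, over local backgrounds of 54 and 60 in SNL and 51 and 51 in sham. Both SNL mice were far brighter than both sham mice in the raw and the processed signal, and the groups did not overlap. The levels were -2.88 and -3.20 in SNL mice and -8.30 and -8.12 in sham mice, with means of -3.04 ± 0.23 and -8.21 ± 0.13 (SD, n = 2 each). The fitted difference, SNL minus sham, was 5.16 ± 0.16 on the log2 scale (SE). Because the sham spots were not well above background, the fold is a bound: Lipn was at least 29.7-fold higher in SNL, with each sham value set to its own level or to that of the dimmest detected probe on that array, whichever was higher. That bound holds for these values and this floor only. The dimmest detected probe is the lowest floor that detected probes allow, and a higher floor would give a smaller fold. An alternative, called normexp below, corrects the raw signals and adds an offset of 50, which narrows folds between dim spots. It gave a 13.6-fold difference, or 3.76 on the log2 scale. Without sham replicate 2, the library low in Schwann cell markers, the difference was 5.25, and without SNL replicate 1, the library high in muscle markers, it was 5.01. In whole cord tissue, more cells that express a gene and more of its RNA per cell cannot be told apart.

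Lipk had processed signals of 459.1 and 378.4 in SNL mice, against 36.9 and 13.0 in sham mice. Raw brightness was 652.6 and 545.5 in SNL mice, against 123.4 and 103.8 in sham mice. As for Lipn, both SNL mice lay above both sham mice, but the sham values of Lipk were further apart. Its levels were -4.69 and -5.11 in SNL mice and -8.43 and -9.87 in sham mice, with means of -4.90 ± 0.30 and -9.15 ± 1.0 (SD, n = 2 each). The fitted difference was 4.25 ± 0.56 on the log2 scale, and Lipk was at least 8.21-fold higher in SNL. With normexp correction it was 4.94-fold higher, or 2.30 on the log2 scale, again under the bound. It was 3.53 on the log2 scale without sham replicate 2 and 4.04 without SNL replicate 1.

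Lipm, the next gene past Lipn, was not well above background on any of the 4 arrays, and its processed signal was the software's surrogate for dim spots on all of them. Those surrogates were 20.3 and 21.6 in SNL mice and 11.8 and 11.2 in sham mice, and they have no order as measurements. Raw brightness was 147.3 and 125.4 in SNL mice, against 93.8 and 94.2 in sham mice. No fold is given for Lipm, and it did not enter the fit.

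**Figure D1:**
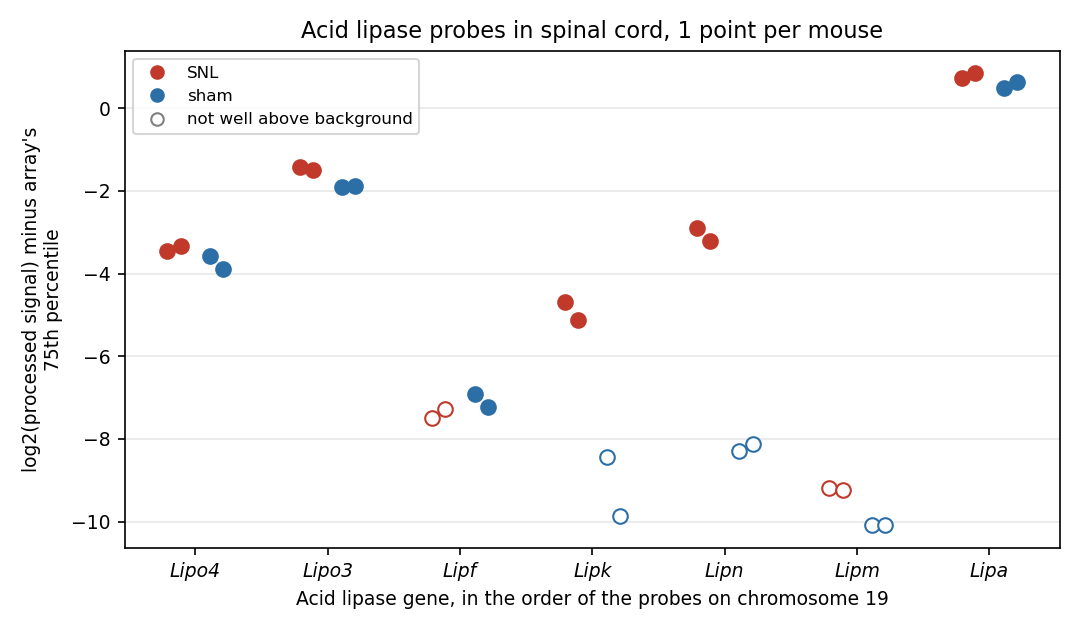
Level of each acid lipase probe (log2 processed signal minus the array's 75th percentile) in 2 SNL and 2 sham mice, 1 point per mouse, with open points where the spot was not well above background. Lipn and Lipk are filled in SNL and open in sham, Lipm is open throughout, and Lipo4, Lipo3 and Lipa lie close together in the 4 mice. Heights compare mice within a gene, not genes.

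Lipf, the gastric lipase gene, had processed signals of 65.6 and 84.3 in SNL mice, neither of them well above background, and 105.8 and 81.0 in sham mice, both well above it. The levels were -7.50 and -7.28 in SNL mice and -6.92 and -7.23 in sham mice. The 2 groups lay close together near the limit of detection, with a fitted difference of -0.32 ± 0.17. Its direction depended on the processing: with normexp, which starts from the raw signals, the difference was 0.18. Raw brightness was 207.8 and 228.5 in SNL mice, against 187.9 and 167.9 in sham mice.

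Lipa was the member whose spot was bright in every mouse. Its processed signals were 19780 and 23520 in SNL mice, against 17900 and 18820 in sham mice, and its levels were 0.74 and 0.85 in SNL mice and 0.49 and 0.63 in sham mice. The SNL values lay just above the sham values, with a fitted difference of 0.23 ± 0.11, or 1.18-fold. With normexp correction the difference was -0.025, so these arrays give no firm direction for Lipa.

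Lipo3 had processed signals of 4410 and 4637 in SNL mice, against 3425 and 3293 in sham mice. The 2 groups did not overlap, and the fitted difference was 0.43 ± 0.092 on the log2 scale, or 1.35-fold. Lipo4 had signals of 1083 and 1293 in SNL mice, against 1063 and 818.2 in sham mice, with a fitted difference of 0.34 ± 0.15, or 1.27-fold. For Lipo4 the lower SNL mouse and the higher sham mouse were almost equal in signal. With normexp correction Lipo3 was at 0.63 and Lipo4 at 0.17.

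Across all 29114 genes and named transcripts fitted in limma, 0.172% passed a Benjamini-Hochberg adjusted p under 0.05, 0.161% as higher in SNL and 0.0103% as lower. Of the 7 members, 6 had enough detected spots to be fitted, and 1 of these, Lipn, passed. Lipk was among the genes at least 2-fold higher at unadjusted p under 0.05, as was Lipn, against 1.91% of all genes, with 0.714% as much lower. Lipo3, at 1.35-fold, was also higher at unadjusted p under 0.05 in limma, against 6.67% of all genes. SNL lay above sham without overlap for 5 fitted members and below it for Lipf, against 24.9% and 20.9% of all genes (45.8% in either direction), and 54.9% of all genes had a difference above 0. The members were chosen on this contrast. Lipn and Lipk entered the fit only through their SNL arrays, and Lipf only through its sham arrays. Nothing is therefore read from these counts.

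The other genes around the cluster were taken by position, from 500 kb before the outermost lipase probe to 500 kb after the last. This window holds 22 further probes of 19 genes or named transcripts, of which 18 were fitted, and 9 of the 19 lie between the lipases. The name not fitted, Lipo2, another gene of the Lipo group, was well above background on 0 of the 4 arrays. None of the 18 passed in limma over all genes (0 called, against 0.172% of all), while at unadjusted p under 0.05 there were 6 higher and 0 lower, against 6.67% and 5.48% of all genes. Their median difference was 0.054, beside 0.028 over all genes. A named transcript on the opposite strand, TC1725193, has its probe 9.02 kb past that of Lipk, between Lipk and Lipn. Its levels were 2.20 and 2.16 in SNL mice and 2.21 and 2.08 in sham mice, a difference of 0.042 ± 0.10, so this bright probe between the 2 lipases overlapped between the groups.

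Ankrd22, an ankyrin repeat gene whose probe lies next to that of Lipm, was at -6.23 and -7.45 in SNL mice and -6.43 and -5.66 in sham mice. These values overlapped, with a difference of -0.80 ± 0.54 that ran from -1.41 without SNL replicate 1 to -0.18 without SNL replicate 2. Stambpl1, a deubiquitinase gene, and Acta2, the smooth muscle actin gene, differed by 0.095 ± 0.13 and -0.34 ± 0.16. Further towards Lipa, Fas, which encodes a death receptor, was at -1.85 and -1.64 in SNL mice and -2.62 and -3.10 in sham mice. Its difference of 1.11 ± 0.21 did not pass (adjusted p = 0.227 in limma). Ch25h, which makes an oxysterol from cholesterol and is the neighbour of Lipa, was at -1.24 and -0.54 in SNL mice and -2.75 and -4.65 in sham mice. Both SNL mice were above both sham mice, but the sham mice were far apart, and the difference of 2.81 ± 0.75 did not pass (adjusted p = 0.328). It was 1.86 without sham replicate 2.

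Past Lipa lie the interferon-induced Ifit genes. Ifit1 was at -0.014 and -0.44 in SNL mice and -0.997 and -1.02 in sham mice, a difference of 0.78 ± 0.18. Ifit3, Ifit1bl1, Ifit2 and Ifit3b differed by 0.56, 0.43, 0.35 and 0.27, and Ifit1bl2 by -0.032, and none passed (adjusted p from 0.281 for Ifit1 to 0.934 for Ifit1bl2). The Ifit genes resemble each other in sequence, so which of them each probe reads is uncertain. At the outer ends, Rnls, Slc16a12, Pank1 and Kif20b differed by -0.27, -0.10, -0.21 and -0.28. With normexp correction the difference of Ch25h was 2.69.

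**Figure D2:**
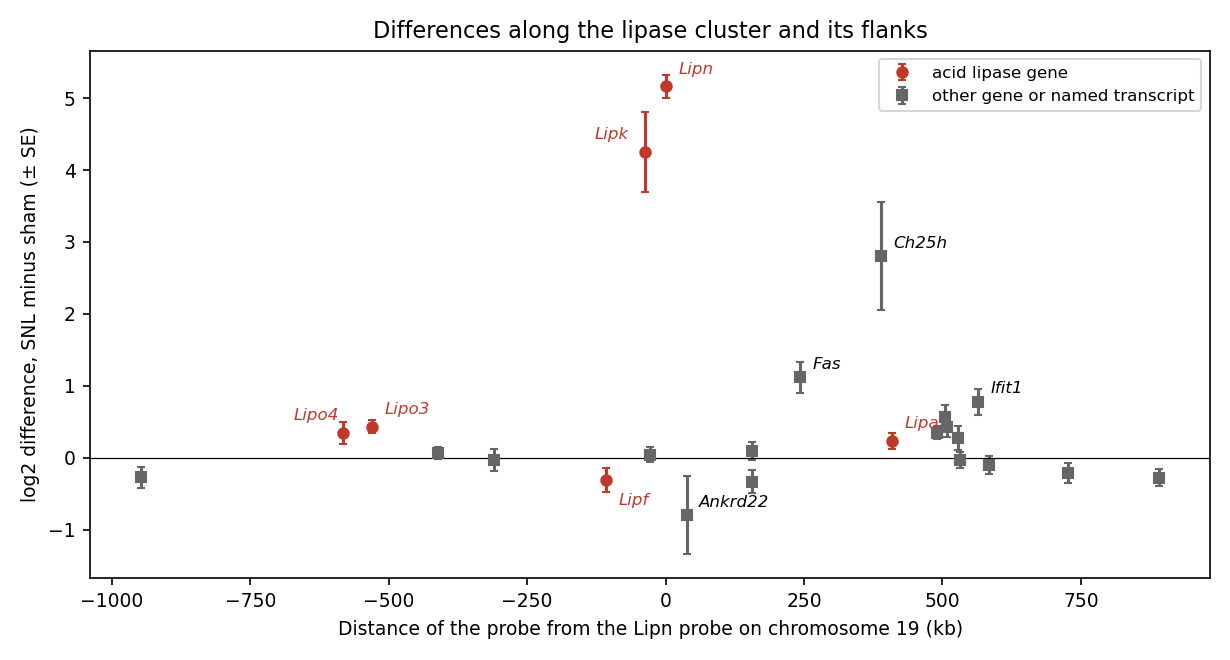
Difference SNL minus sham (log2, bars are the SE of the fit) of each fitted gene against the distance of its probe from the Lipn probe in kb. Lipn is at 5.16 and Lipk at 4.25, both over sham spots not well above background, and the 18 other genes or transcripts run from -0.80 (Ankrd22) to 2.81 (Ch25h).

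The promoters of Lipn and of Lipm, the next gene on the same strand, are shown. The 2 were picked after their values were seen, Lipn as high in SNL and Lipm as dim in every mouse. They are RefSeq windows on GRCm38.p6, another build than that of the probes, from 250 bases before to 50 bases after the gene start, 300 bases in all. Lipn is at chr19:34067108-34067407 and Lipm at chr19:34100693-34100992, both on the plus strand, written 5′ to 3′. Capitals mark a match to TGANTCA, the AP-1 motif bound by Fos, Jun and related factors.
Lipn: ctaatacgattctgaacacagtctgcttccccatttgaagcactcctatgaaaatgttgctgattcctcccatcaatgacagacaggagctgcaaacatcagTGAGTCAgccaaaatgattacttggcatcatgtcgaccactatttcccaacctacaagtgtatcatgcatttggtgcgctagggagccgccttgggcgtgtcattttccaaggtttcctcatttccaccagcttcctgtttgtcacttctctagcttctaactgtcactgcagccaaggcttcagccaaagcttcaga
Lipm: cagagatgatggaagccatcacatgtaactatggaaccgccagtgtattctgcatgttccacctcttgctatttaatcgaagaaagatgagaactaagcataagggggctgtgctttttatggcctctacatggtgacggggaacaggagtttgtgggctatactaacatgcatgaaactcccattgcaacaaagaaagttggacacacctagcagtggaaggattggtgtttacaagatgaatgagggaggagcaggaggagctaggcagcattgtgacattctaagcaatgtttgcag
The windows of 6 members were searched, without that of Lipk, which was not analysed here, for 3 motifs on both strands, chosen after the values were seen. The motifs were TGANTCA, TGACGTCA (the cyclic AMP response element, also bound by Atf3 in complexes) and the CLEAR element, which lysosomal genes share. TGANTCA was found in 1 of the 6 windows, that of Lipn, as TGAGTCA starting 148 bases before the gene start, and it is held by 7.81% of 32851 mouse promoter windows of the same length. TGACGTCA was found in 0 of the 6, against 1.79% of all windows, and the CLEAR element in 0 of the 6, against 0.326%. The windows without TGANTCA include those of Lipo4, Lipo3 and Lipa, which were well above background in all 4 mice. These are matches of letters in a window, and binding was not measured. Whether the motif has a part in the values of Lipn was not tested.

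The genes most like Lipn in profile were ranked by the Euclidean distance between log2 values, each gene centred on its own mean over the 4 mice, among genes with a current symbol. In these values the nearest was Atf3, which encodes a stress-induced transcription factor known from injured neurons, at a distance of 0.191. Its levels were 2.74 and 2.60 in SNL mice and -2.54 and -2.55 in sham mice. The orphan receptor gene Gpr151 followed at 0.325, the cornified envelope gene Sprr2f at 0.358, the keratin gene Krt16 at 0.538 and the predicted gene Gm9758 at 0.540. Speer3, Speer1 and Speer4d, which belong to a family of similar sequences, were at 0.582, 0.586 and 0.590. Like Lipn, Sprr2f and Krt16 were detected in 0 of the 2 sham mice, whereas Atf3 and Gpr151 were detected in all 4 mice. Lipk was at 1.46 and was the 35th nearest of all tested genes and transcripts. The other fitted members were at 4.74 or more. With 4 mice this distance depends mostly on the size of the SNL minus sham difference, for which Lipn was chosen. The 8 nearest had fitted differences from 4.74 (Speer3) to 5.70 (Speer1). The ranking thus lists genes of similar difference, and no link to Lipn is read from it. The order also rests on sham values of Lipn that were not well above background. With normexp values, tried after the data were seen, Speer3 and Krt16 were the nearest, at 0.203 and 0.217, whereas Atf3 was at 1.42 (place 49 among genes with a current symbol) and Gpr151 at 1.26 (place 42).

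**Figure D3:**
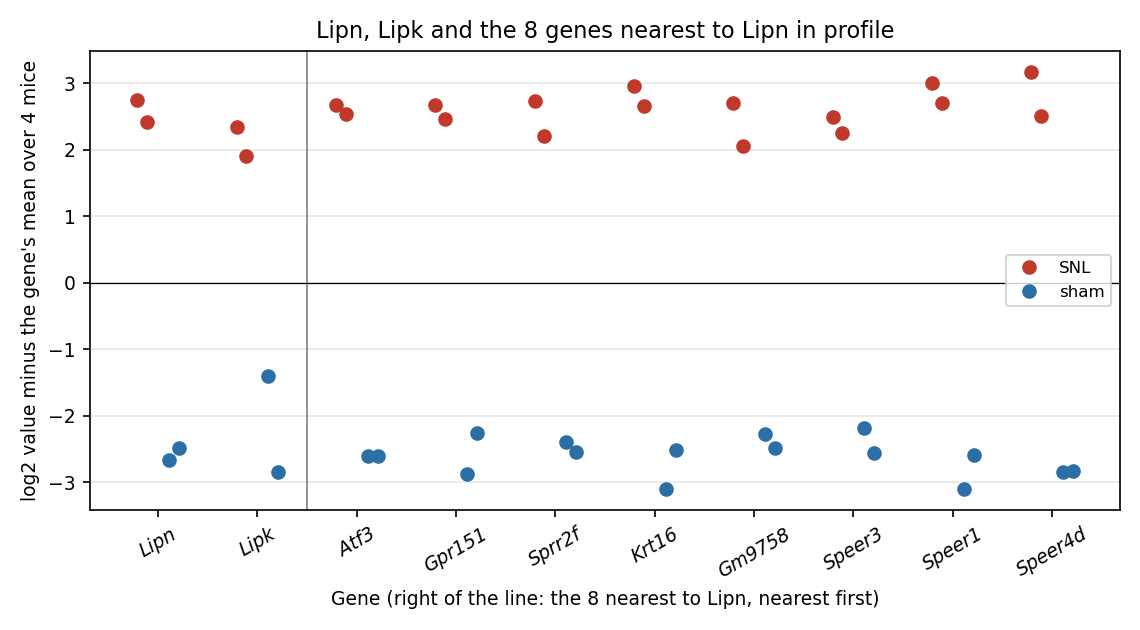
Log2 value of each gene minus its own mean over the 4 mice, 1 point per mouse, for Lipn, Lipk and the 8 genes nearest to Lipn in the order of their distance. In Lipn and these 8 genes all SNL points lie above 2 and all sham points below -2, while the sham points of Lipk are spread wider.

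The 4 lists of related genes were compared next, chosen for what acid lipases do. Together they hold 80 genes, of which 74 were fitted. None passed in limma over all genes (0 called, against 0.172% of all), and at unadjusted p under 0.05 there were 14 higher and 4 lower, against 6.67% and 5.48% of all genes. Of the 74, 6 were at least 2-fold higher and 0 at least 2-fold lower at that p, against 1.91% and 0.714% of all genes. Their median difference was 0.054, beside 0.028 for all genes.

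Lysosomal lipid hydrolases and their partners, the enzymes that work beside Lipa, had a median of 0.0037 over 20 members, all fitted. At unadjusted p under 0.05 in limma there were 3 higher and 3 lower, against 6.67% and 5.48% of all genes. Pla2g15, a lysosomal phospholipase gene, was at 0.46 and 0.67 in SNL mice and 0.15 and 0.18 in sham mice, a difference of 0.40 ± 0.12 (adjusted p = 0.359). The thioesterase gene Ppt2 was at -1.94 and -1.77 in SNL mice and -1.35 and -1.53 in sham mice, a difference of -0.42 ± 0.13 (adjusted p = 0.369). None of the 20 was changed 2-fold.

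Among 26 other lipases and lipid droplet genes, 23 were fitted, with a median of 0.099, 6 higher and 1 lower at unadjusted p under 0.05 (6.67% and 5.48% of all genes), and 3 at least 2-fold higher (1.91% of all genes). Pnliprp2, a pancreatic lipase relative, had the detection pattern of Lipn. Its levels were -4.60 and -3.98 in SNL mice and -8.64 and -8.79 in sham mice, where it was not well above background. It was at least 12.5-fold higher in SNL, with a fitted difference of 4.42 ± 0.25 that did not pass (adjusted p = 0.0534 in limma). With normexp correction the difference was 2.64, under the bound. Like Lipn and Lipk, Pnliprp2 entered the fit only through its SNL arrays, so nothing is read from its p. It is among the genes counted as 2-fold higher here and over the 4 lists together. Liph, which encodes a phospholipase that makes lysophosphatidic acid, was at -3.04 and -3.04 in SNL mice and -4.29 and -4.65 in sham mice, a difference of 1.43 ± 0.16 (adjusted p = 0.127). Angptl4, an inhibitor of lipoprotein lipase, and Pnpla2, the main triglyceride lipase of lipid droplets, differed by 1.13 ± 0.18 and 0.63 ± 0.094 and did not pass either (adjusted p = 0.181 and 0.171).

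Genes of cholesterol ester handling, downstream of Lipa, had a median of 0.090 over 16 members, all fitted, with 4 higher and 0 lower at unadjusted p under 0.05 (6.67% and 5.48% of all genes). Abca1, which exports cholesterol from cells, was at 1.86 and 1.71 in SNL mice and 0.93 and 0.66 in sham mice, a difference of 1.00 ± 0.14 (adjusted p = 0.168). Soat2, which esterifies cholesterol, was at -5.51 and -4.05 in SNL mice and -6.61 and -6.46 in sham mice. Its difference of 1.75 ± 0.55 did not pass (adjusted p = 0.377) and was 1.17 with normexp correction and 1.02 without SNL replicate 2. Apoe, the main lipid carrier protein gene of the central nervous system, differed by 0.41 ± 0.13 (adjusted p = 0.388).

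Genes of the epidermal lipid barrier, the process in which human LIPN acts, had a median of 0.047 over 15 fitted of 18 members. At unadjusted p under 0.05 in limma there were 1 higher and 0 lower, against 6.67% and 5.48% of all genes. The higher one was Klk7, a protease of skin shedding, at -4.47 and -4.82 in SNL mice and -6.52 and -7.06 in sham mice. Its difference was 2.15 ± 0.25 (adjusted p = 0.139). Pnpla1, which makes skin ceramides, Sdr9c7 and the transglutaminase gene Tgm1 differed by 0.28 ± 0.10, 0.79 ± 0.39 and 1.02 ± 0.53, with adjusted p from 0.444 to 0.547. With 1 mouse left out, Sdr9c7 ran from 0.40 (without sham replicate 1) to 1.19 (without sham replicate 2), and Tgm1 from 0.36 (without sham replicate 2) to 1.68 (without sham replicate 1).

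**Figure D4:**
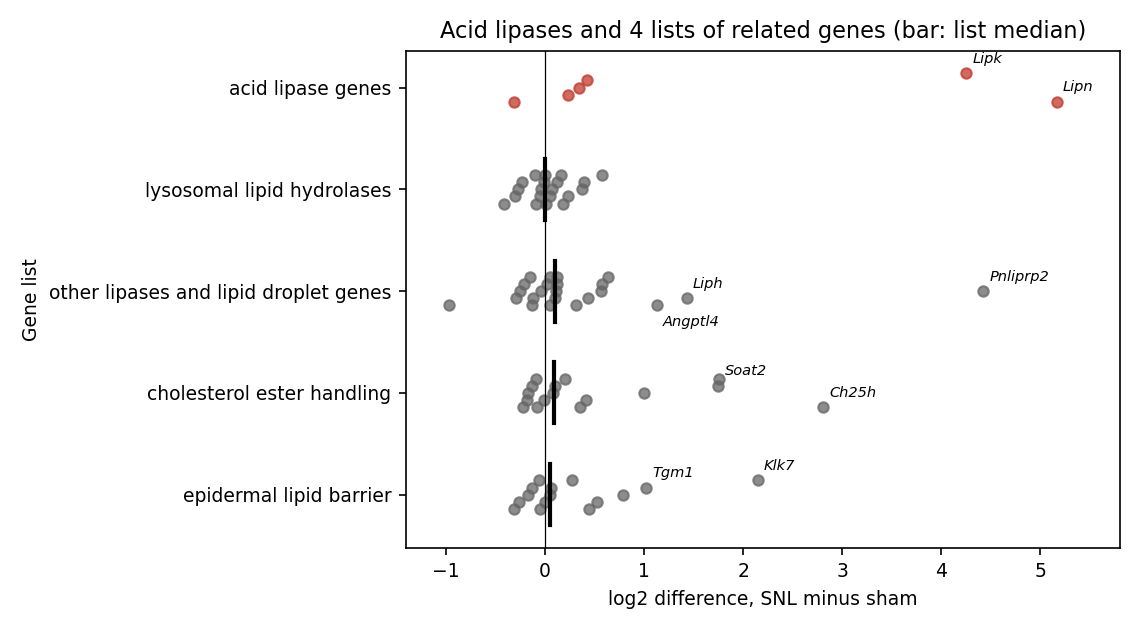
Difference SNL minus sham (log2) of the fitted acid lipase genes and of the fitted genes in 4 lists, 1 point per gene, with a bar at the median of each of the 4 lists. The medians lie between 0.0037 and 0.099. Pnliprp2 at 4.42 is the one point of the lists near Lipn and Lipk, also over sham spots not well above background.

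Markers of cell types that could carry these lipases were measured in the same mice. Over 12 fitted of 13 keratinocyte markers the summed level was 15.1 and 16.5 in SNL mice, against 13.6 and 15.4 in sham mice. Of the 12, 0 were called in limma, against 0.172% of all genes. At unadjusted p under 0.05, 1 was higher and 1 lower, against 6.67% and 5.48% of all genes. The basal keratins Krt5 and Krt14 differed by 0.23 and 0.12 and overlapped between groups, and Krt17, a keratin of stressed epithelium, was the higher one, at 1.65 ± 0.11 (adjusted p = 0.0668). Krt15, another basal keratin, was the lower one, at -0.86 ± 0.19 (adjusted p = 0.260), and Col17a1, a hemidesmosome collagen gene, was at -0.56 ± 0.28 with SNL below sham. Most of the summed level came from Trp63, and the other 11 markers summed to 2.03 and 2.27 in SNL mice, against 2.09 and 2.13 in sham mice. Over 8 fitted of 12 stomach markers the sum was 0.303 and 0.469 in SNL mice, against 0.358 and 0.416 in sham mice, and Cblif, Tff1 and Gkn2 were well above background on 0 of the 4 arrays. Over 13 markers of macrophages and microglia, in which Lipa is active, the sum was 61.4 and 53.2 in SNL mice, against 37.0 and 37.3 in sham mice, and 12 of 13 lay higher in SNL without overlap, against 24.9% of all genes. None of the 13 passed over all genes (0 called, against 0.172% of all), and 10 were higher and 0 lower at unadjusted p under 0.05 in limma, against 6.67% and 5.48% of all genes. Over 7 adipocyte markers the sum was 0.967 and 0.675 in SNL mice, against 0.590 and 0.785 in sham mice. The sums were 10.3 and 9.42 in SNL mice, against 9.71 and 8.97 in sham mice, over 7 fitted of 10 sensory ganglion markers. Most of it came from Prph, and the other 6 summed to 1.88 and 2.38 in SNL mice, against 2.03 and 2.01 in sham mice. The sums were 17.1 and 11.6 in SNL mice, against 17.6 and 9.63 in sham mice, over 8 markers of meninges and fibroblasts. Over 8 blood cell markers they were 22.0 and 17.3 in SNL mice, against 14.9 and 24.4 in sham mice. The part of these cell types in the values of Lipn and Lipk was not tested.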

How the data were processed

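Per the labels' protocols, total RNA from the cord of each mouse was amplified, labelled with Cy3 and hybridised to a 1-colour Agilent array. The deposited scanner files hold linear spot intensity from Agilent Feature Extraction (version 10.7.3.1 per the file headers, 10.7.1.1 per the submitters' processing notes). The authors also deposited a table of log2 values, used as an alternative: its columns follow log2 of the scanner signals (correlation rounding to 1) on the same scale, shifted by 0.122 to 0.132 from the values used here and not centred per gene, with column medians of -3.48 and -3.33 for SNL and -3.45 and -3.52 for sham. Over which spots its percentile was taken stays unknown.

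Processed signals were put on the log2 scale, and the 75th percentile of the 59305 spots that are not controls was subtracted within each array, with outlier spots left out. Of 55681 probes, a RefSeq table (GRCm38.p6) named 26762 by accession, 3819 by present symbol and 639 by older symbol, and 24461 kept the name in the file. A probe was fitted if well above background on at least 2 of 4 arrays, and the brightest probe stood for a gene. The difference SNL minus sham was fitted with limma 3.58.1 (R 4.3.3, lmFit and eBayes, no covariate, 2 residual and 1.66 prior degrees of freedom), with Benjamini-Hochberg adjustment over 29114 genes. The fit was tested on simulated data. The noise there was normal and independent, with no detection filter and no surrogate values, so it does not bear on how dim spots are measured. The smallest p of an exact permutation test at this size is 0.333, and no such test was run. The number of arrays limits the precision, with a median SE of 0.13. Same-numbered SNL and sham mice did not deviate together (correlation of deviations -0.027), and the main fit did not pair them. With 2 mice per group this is a single value over all genes, and it does not show whether mice were handled in pairs. The members, lists and tests were chosen with earlier results of these data known. Genes named are the members, all genes within 500 kb, up to 4 of each related list with the smallest p, the 8 nearest to Lipn, and markers, of which those printed were picked after their values were seen. Some genes that this rule names are not reported here.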

Additional observations from a re-analysis of the deposited data

How the results depend on the processing

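Lipn kept its direction under the 11 alternatives that gave it a value, from 3.76 (normexp) to 5.32 on the log2 scale, and Lipk from 2.30 (normexp) to 4.97; neither is left by a filter that asks for all 4 arrays. Of the fitted members, 1 passed over all genes, against 2 (Lipn and Lipk) with normexp and with robust estimation around a variance trend. Without the filter for dim probes 2 passed, Lipn and Lipm, the second on surrogate values on all 4 arrays, and Lipk did not (adjusted p = 0.06 in limma). The number of members that passed was 0 with quantile normalization, with the strict filter, with the replicate block and without any 1 mouse. The 2 members at least 2-fold higher became 0 with the strict filter, by its construction. Over all genes, 47 higher and 3 lower became 119 and 14 with normexp, 11 and 0 with quantile normalization, 1143 and 88 with no filter and 436 and 123 with variance trend and robust estimation; with the strict filter 5 were lower. With the replicate block, and without any 1 mouse, 0 passed in either direction in limma, where at unadjusted p under 0.05 there were 1669 higher and 1155 lower with the block, and 1253 to 2743 higher and 726 to 2321 lower with a mouse left out. Of the related lists 0 genes passed, against 1 with normexp, 3 with no filter and 8 with variance trend and robust estimation. With normexp the direction turned for Lipf (0.177), Lipa (-0.0247), and the named transcripts LOC100505122 (-0.255) and ENSMUST00000148137 (0.0511). Near 0, the sign also turned for TC1725193 (-0.0133 with quantile normalization), and with 1 mouse left out for ENSMUST00000148137 (range -0.204 to 0.135), TC1725193 (-0.0245 to 0.108), Stambpl1 (-0.0246 to 0.214), Ifit1bl2 (-0.116 to 0.0509) and Slc16a12 (-0.221 to 0.0123). The causes of these moves were not tested beyond those stated. A slide or scan block was not run, as there was 1 of each.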
